A study of Rattus norvegicus with 64 samples.

Results

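Hippocampus and cortex were compared within the same brains, in 8 rats of the ApoE3 genotype that had received PBS (phosphate-buffered saline). The members were chosen by their labels: every hippocampal and every cortical library of an ApoE3 rat given PBS, joined by the rat's number. This gave 8 pairs, or 16 of the 64 libraries of the series, from 4 males (rats 37, 41, 43 and 45) and 4 females (rats 56, 58, 59 and 61). The series studied doxorubicin, an anthracycline chemotherapy drug, given at 2 mg/kg/week for 4 weeks from 5 weeks of age, with brains taken 5 to 6 weeks after the last dose. The ApoE3 PBS rats are its undosed ApoE3 controls. A further 3 sets of 8 rats, each of 4 males and 4 females with both regions, served as separate animals for the same contrast: ApoE4 rats given PBS, ApoE3 rats given doxorubicin and ApoE4 rats given doxorubicin. ApoE3 and ApoE4 are human forms of apolipoprotein E, the lipid carrier of the brain. The rat strain, the construct and the dissection borders of both regions are not given in the sources used here. Library numbers ran from 1 to 32 for hippocampus and from 33 to 64 for cortex over the series, so a preparation batch following these numbers cannot be told apart from region.

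The hippocampus is an infolded part of the cortex with a simple circuit. Granule cells of the dentate gyrus project to CA3 pyramidal cells, CA3 projects to CA1, and CA1 and the subiculum send the output. The neocortex is built of layers, with intratelencephalic neurons above and mostly subcortically projecting neurons below. Regional identity is set in development by transcription factors, many of which stay on in the adult. PROX1 is the homeobox factor of dentate granule cells, C1QL2 is a synaptic organiser secreted at their mossy fibre terminals, and RORB is the orphan nuclear receptor that marks cortical layer 4.

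The labelled regions were checked against these 3 markers. Prox1 was at 68.8 to 114 CPM (median 77.5) in hippocampus and 12.3 to 18.4 CPM (median 14.9) in cortex (CPM, counts-per-million of gene counts after TMM scaling). All 8 hippocampal libraries lay above all 8 cortical ones. The log2 difference, hippocampus minus cortex, was 2.46 (SE 0.06), or 5.5-fold, with an adjusted p of 2.86e-12 by edgeR's quasi-likelihood test with Benjamini-Hochberg adjustment, which was used throughout. C1ql2 was at 64 to 96.8 CPM (median 76) in hippocampus and 4.26 to 8.5 CPM (median 5.14) in cortex, again without overlap, a log2 difference of 3.87 (SE 0.12). Rorb ran the other way, at 6.04 to 11.5 CPM (median 10.6) in hippocampus and 11.5 to 24.2 CPM (median 16.1) in cortex. Its difference of -0.89 (SE 0.16) was the smallest of the 3 (adjusted p 0.000358), and the highest hippocampal library lay just below the lowest cortical one. In bulk tissue, fewer cells of a type and less RNA per cell cannot be told apart, and this holds for every gene below.

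**Figure D1:**
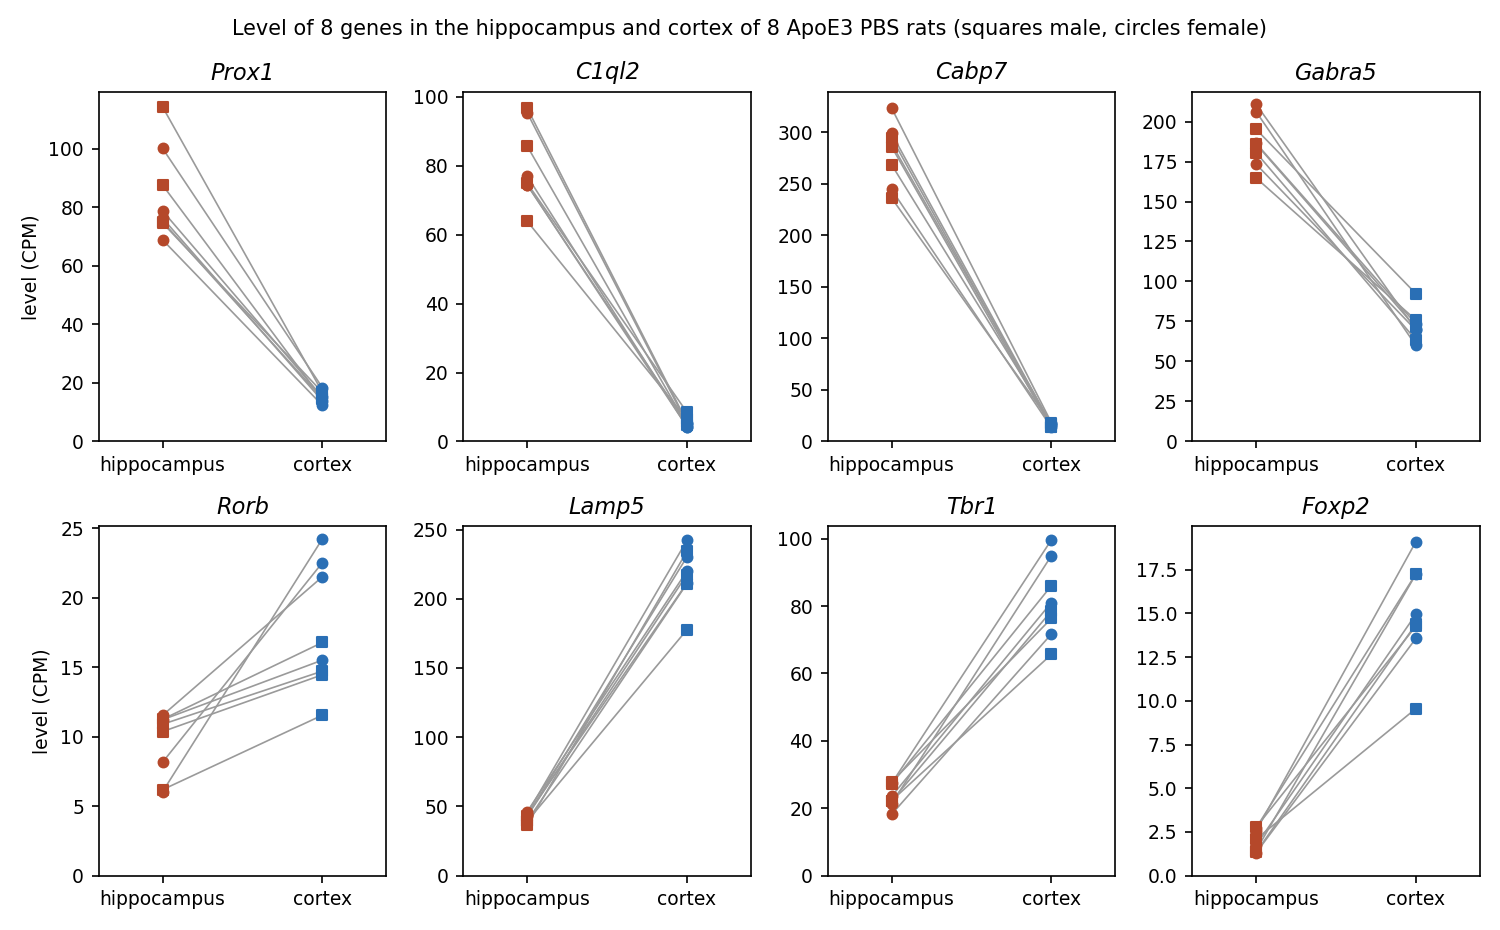
Level of Prox1, C1ql2, Rorb and further named genes in each library (CPM, axes from 0), hippocampus at the left and cortex at the right of each panel, with males as squares, females as circles and a line joining the 2 libraries of a rat. Prox1 and C1ql2 fall from hippocampus to cortex in 8 of 8 rats and Rorb rises in 8 of 8, with Rorb the smallest step of the 3 markers.

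Promoter sequence is shown for 3 genes on which the regional contrast turns: Cabp7, the gene of smallest adjusted p, Lamp5, the cortical layer gene of smallest adjusted p, and the marker Rorb. Each is the stretch of 250 bases before the annotated start, 5′ to 3′ on the gene's strand, from RefSeq on build GRCr8. Capitals mark 3 core promoter motifs searched on either strand, overlaps included. The GC box, bound by SP1-family factors, was searched as GGGCGG. For the CCAAT box the 5 letters of its name were searched. For the TATA box, which places the transcription machinery, the letters TATAAA were searched. Cabp7 lies at chr14:83832668-83832917 on the minus strand, Lamp5 at chr3:143824947-143825196 on the plus strand and Rorb at chr1:225970974-225971223 on the minus strand.
Cabp7: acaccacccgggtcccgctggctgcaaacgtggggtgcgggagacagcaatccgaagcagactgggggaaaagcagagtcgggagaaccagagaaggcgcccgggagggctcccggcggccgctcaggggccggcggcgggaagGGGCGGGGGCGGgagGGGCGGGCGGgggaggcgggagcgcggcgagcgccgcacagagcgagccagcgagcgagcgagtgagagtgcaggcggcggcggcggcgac
Lamp5: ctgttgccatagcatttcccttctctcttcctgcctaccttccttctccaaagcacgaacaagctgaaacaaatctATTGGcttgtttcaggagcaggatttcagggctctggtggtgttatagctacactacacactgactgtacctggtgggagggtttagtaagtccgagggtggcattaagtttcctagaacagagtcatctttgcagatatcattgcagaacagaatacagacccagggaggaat
Rorb: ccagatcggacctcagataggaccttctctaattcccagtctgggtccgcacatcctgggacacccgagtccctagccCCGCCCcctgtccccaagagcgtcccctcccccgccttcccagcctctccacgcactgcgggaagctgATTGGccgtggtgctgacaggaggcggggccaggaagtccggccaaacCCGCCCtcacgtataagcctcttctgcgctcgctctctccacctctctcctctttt
The Cabp7 window is 76.0% G or C and holds 4 GC boxes, all on the gene's strand. The Lamp5 window is 46.4% G or C, with no GC box and 1 CCAAT box on the opposite strand. The Rorb window is 64.0% G or C, with 2 GC boxes and 1 CCAAT box, all on the opposite strand. Among all 33469 promoter windows of this length in the table, 30.5% held a GC box, 34.0% a CCAAT box and 12.9% a TATA box. These matches describe the letters only.

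The libraries of both regions were alike in depth. Totals ran from 11.8M to 17.1M counts in hippocampus and from 11.9M to 16.6M in cortex (exact paired sign-flip permutation test, 2-sided, p = 0.258), and spike-in RNA made up 1.418% ± 0.188 and 1.498% ± 0.298 of counts (SD, n = 8 each; exact p = 0.367). Mitochondrially encoded genes took 6.86% ± 0.38 of hippocampal and 7.89% ± 1.21 of cortical counts. The share was higher in cortex in 6 of 8 rats, at an exact paired p of 0.0781 (0.234 adjusted over the 3 values), where 8 pairs allow no p below 0.00781. Genes of the choroid plexus, the secretory epithelium of the ventricles, stood far apart in the hippocampus of rats 37 and 41 and in the cortex of rat 58. Their values are given with the tissue lists, and counts without these 3 rats stand beside the lists whose count in a direction they moved by over 1.5 times.

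Of 14981 genes tested, 7376 differed between the regions (49.2%), 3581 higher in hippocampus (23.9%) and 3795 higher in cortex (25.3%). The median log2 difference over all tested genes was -0.0034. Differences of at least 2-fold were fewer, 1078 genes (7.2%): 563 genes higher in hippocampus (3.76%) and 515 higher in cortex (3.44%). For 2851 genes (19%) the libraries of the regions did not overlap, and 4936 (32.9%) had the same direction in 8 of 8 rats. Without rats 37, 41 and 58, 2694 genes were higher in hippocampus and 2959 in cortex, and 5503 of the calls were shared in direction with the full set. No gene called in both was called in opposite directions. Counts for a gene list are read below against these shares. Outside the hippocampal field, patterning and cortical layer lists, the genes named from a list were mostly those of smallest p in each direction. Separate ranges among them follow largely from that choice and are given as description only.

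The contrast was repeated in the 3 other sets of rats, which share no animal with it. ApoE4 PBS rats had 7179 genes called (48.4%), of which 5475 were called in the same direction, which is 74.2% of the ApoE3 PBS calls and 76.3% of their own. ApoE3 doxorubicin rats, with 50% of genes called, shared 5750 (78% and 77.7%). ApoE4 doxorubicin rats, with 50.3% called, shared 5599 (75.9% and 74.1%). Opposite calls numbered 11, 20 and 8. Of the 1078 genes that differed at least 2-fold, 819, 859 and 815 did so in the same direction in the 3 sets.

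The 14 largest differences toward hippocampus are described first. Htr5b, the serotonin 5-HT5B receptor, was at 12.4 to 20.2 CPM (median 14.6) in hippocampus and 0 to 0.376 CPM (median 0.168) in cortex. Nhlh1, a basic helix-loop-helix factor of developing neurons, was at 8.36 to 17.9 CPM (median 9.75) in hippocampus and 0 to 0.32 CPM (median 0.0781) in cortex. Their log2 differences were 6.58 (SE 0.30) and 6.50 (SE 0.24). Klk8, the serine protease neuropsin, was at 11.6 to 15.9 CPM (median 13.4) in hippocampus and 0 to 0.406 CPM (median 0.202) in cortex. Npy2r, the presynaptic neuropeptide Y Y2 receptor, was at 9.6 to 14.8 CPM (median 12.9) in hippocampus and 0.263 to 0.541 CPM (median 0.382) in cortex, a log2 difference of 4.90 (SE 0.16). Both again showed no overlap between the regions. The cortical medians of Htr5b, Nhlh1, Klk8, Cxcr1 and Chst9 were 0.168, 0.0781, 0.202, 0.137 and 0.143 CPM, with at least 1 cortical library at 0 for each, so the log2 differences of these 5 genes rest on a small denominator.

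Cabp7, a neuronal calcium-binding protein, combined a high level with a large difference: 236 to 324 CPM (median 288) in hippocampus and 13.6 to 18.3 CPM (median 16.4) in cortex, a log2 difference of 4.13 (SE 0.07) with the smallest adjusted p of all genes, 9.71e-14. Shisa6, an auxiliary subunit that holds AMPA receptors at the synapse, was at 30.4 to 45.1 CPM (median 40.7) in hippocampus and 1.28 to 4.13 CPM (median 3.08) in cortex. The sodium-proton exchangers Slc9a4 and Slc9a2 differed by 4.41 (SE 0.11) and 3.21 (SE 0.10). The neuropeptide gene Nts (neurotensin) was at 17.6 to 33.2 CPM (median 28.6) in hippocampus and 1.15 to 2.86 CPM (median 2.14) in cortex, and Gpr161, a ciliary orphan receptor, at 29.9 to 48.9 CPM (median 36.5) in hippocampus and 2.48 to 6.15 CPM (median 3.91) in cortex. In both, every hippocampal library was above every cortical one. Cxcr1, a chemokine receptor (6.23), Chst9, a sulfotransferase (5.25), and Lrrc10b, a leucine-rich repeat protein (3.40), complete the 14 of this direction together with C1ql2.

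Toward cortex, voltage-gated potassium channels of the ether-a-go-go family led. Kcnh5 was at 0.188 to 1.53 CPM (median 0.82) in hippocampus and 13.2 to 33.1 CPM (median 23.4) in cortex, a log2 difference of -4.86 (SE 0.22), and Kcnh7 at 2.4 to 5.9 CPM (median 3.56) in hippocampus and 26.8 to 49.9 CPM (median 36.6) in cortex, a difference of -3.40 (SE 0.16). Both were without overlap. Foxp2, a forkhead factor of layer 6 neurons, was at 1.3 to 2.76 CPM (median 1.91) in hippocampus and 9.55 to 19.1 CPM (median 14.7) in cortex, which is 7.64-fold higher in cortex, with no overlap.

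Adra1b, the alpha-1B adrenergic receptor, was at 1.44 to 10.1 CPM (median 2.19) in hippocampus and 15.6 to 23 CPM (median 19.2) in cortex. Its hippocampal maximum came from rat 45 and still lay below the lowest cortical library. Further genes of this group were Fut9, a fucosyltransferase (-3.34), Dgkh, a diacylglycerol kinase (-3.11), Adam33, a metalloprotease (-4.37), Rasgef1c, a Ras exchange factor (-3.52), Trim54, a tripartite-motif protein (-3.29), and Ago3, an Argonaute protein (-2.79). Cyp11b2, named for aldosterone synthase, differed by -4.78 and Olr59, an olfactory receptor gene, by -3.59. Both belong to families of related genes. How the authors' counting treated overlapping genes and strand is not given in the sources used here, so the source of these counts is uncertain. All 28 genes ran the same way in 8 of 8 rats, which the rule that picked them required. In the 3 other sets of rats, which the rule did not use, all 28 passed in the same direction.

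**Figure D2:**
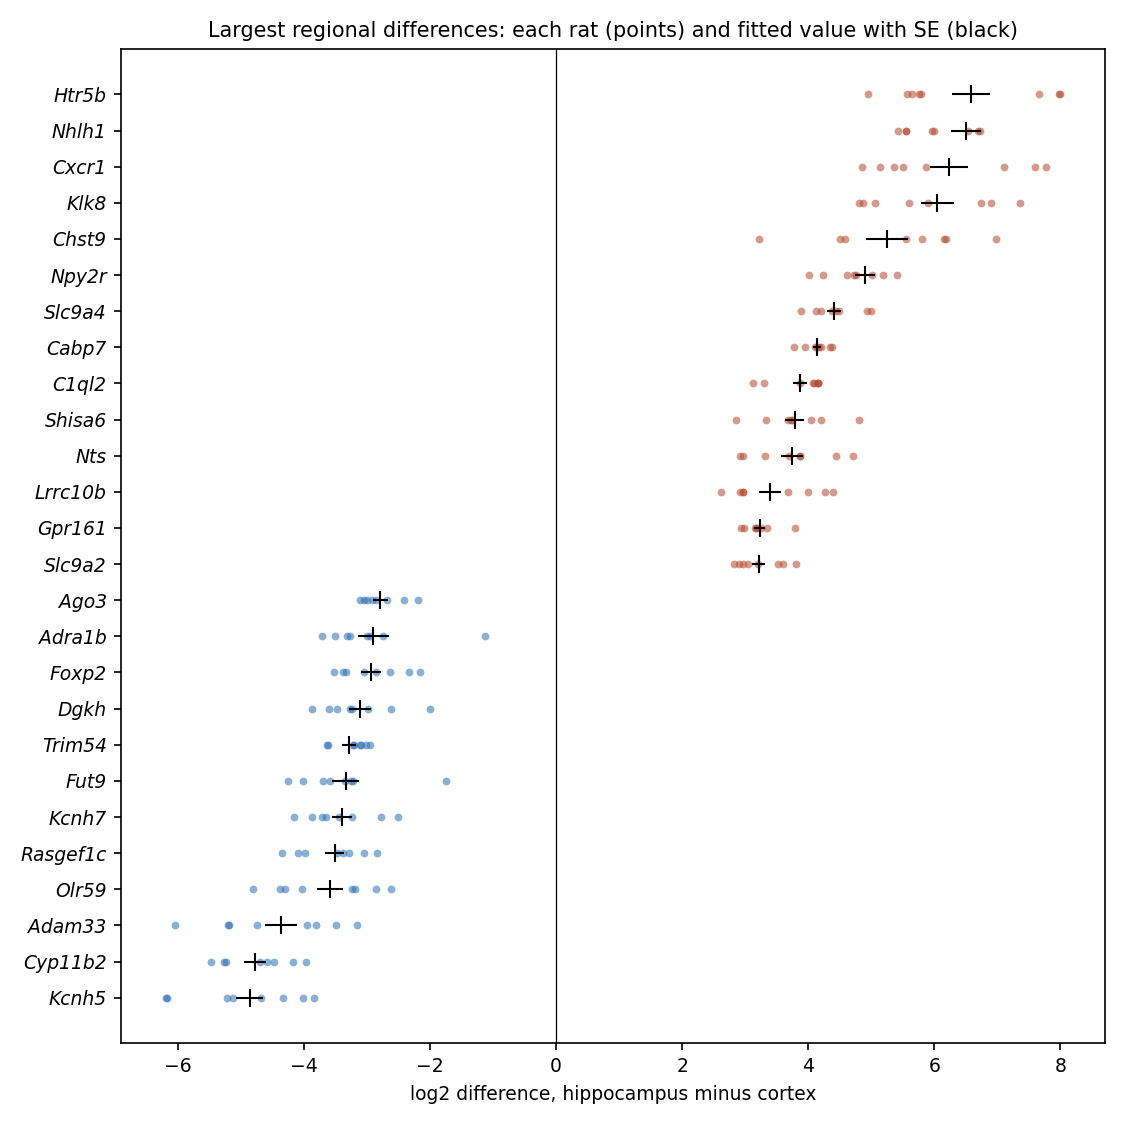
Log2 difference between hippocampus and cortex for genes named among the 14 of largest difference in each direction, with 1 point per rat (a prior count of 1 added) and the fitted value with its SE in black. Every rat lies on the same side of 0 for each gene shown, as the rule that picked the genes required. The fitted values run from Htr5b at 6.58 to Kcnh5 at -4.86.

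Genes of the hippocampal fields were examined next, by lists of markers known from the field. Of 18 tested genes of the dentate granule cell list, 10 were higher in hippocampus, 1 was higher in cortex and 7 did not pass, at a median log2 difference of 0.61. The summed level of the list was 678 to 846 CPM (median 747) in hippocampus and 428 to 514 CPM (median 478) in cortex. Besides Prox1 and C1ql2, the neuronal differentiation factor Neurod1 was at 25.5 to 48.8 CPM (median 30.1) in hippocampus and 5.69 to 27.3 CPM (median 9.36) in cortex. Neurod1 was higher in hippocampus in 8 of 8 rats although its highest cortical library reached into the hippocampal range. Plk5, a polo-like kinase of neurons (0.66), the guidance molecule Sema5a (0.71), the monoamine transporter Slc29a4 (0.75) and the desmosomal protein Dsp (2.43) were also higher. Calb1, the calcium buffer calbindin that dentate granule cells share with upper cortical layers, was at 65.1 to 105 CPM (median 85.6) in hippocampus and 85.6 to 106 CPM (median 93.7) in cortex and did not pass (adjusted p 0.223). Npnt, an integrin ligand, was higher in cortex, at -0.50, and did not pass without rat 41, 43 or 58.

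For mossy cells of the hilus and CA3 pyramidal cells, 9 of 17 tested genes were higher in hippocampus and 4 in cortex, at a median of 0.70. The list summed to 1292 to 1826 CPM (median 1545) in hippocampus and 433 to 532 CPM (median 485) in cortex, so that the lowest hippocampal library held over 2 times the sum of the highest cortical one. The copines Cpne7 and Cpne4, calcium-dependent membrane-binding proteins, were at 210.3 to 306 CPM (median 299) in hippocampus and 34.7 to 44.4 CPM (median 38.2) in cortex for Cpne7 and at 188 to 278 CPM (median 254) in hippocampus and 34.7 to 57.8 CPM (median 50.2) in cortex for Cpne4. The postsynaptic scaffold protein Homer3 was at 73.1 to 95.2 CPM (median 83.2) in hippocampus and 17.1 to 23.2 CPM (median 19.5) in cortex. None of the 3 overlapped. Nnat, an imprinted membrane proteolipid, differed by 2.21 (SE 0.13), Plagl1, an imprinted zinc-finger factor, by 3.13 (SE 0.24), Bok, a Bcl-2 family member, by 1.92 (SE 0.08), and the kainate receptor subunit Grik4 by 1.15 (SE 0.06). Drd2, the dopamine D2 receptor listed for mossy cells, was at 1.7 to 2.88 CPM (median 1.92) in hippocampus and 5.64 to 13.6 CPM (median 9.8) in cortex. It was lower in hippocampus in 8 of 8 rats, and it is also a striatal and cortical gene. Of the 4 genes of this list higher in cortex, only Drd2 is described here.

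The CA2 list was divided, with 5 of 11 tested genes higher in hippocampus, 3 higher in cortex and a median of 0.05. Rgs14, a regulator of G-protein signalling that restrains plasticity in CA2, was at 83.4 to 144 CPM (median 105) in hippocampus and 39.1 to 54.4 CPM (median 45.4) in cortex. The calcium-binding protein Necab2 was at 108 to 147 CPM (median 129) in hippocampus and 33.9 to 55.2 CPM (median 47.3) in cortex, and the cell-adhesion protein Amigo2 at 14.6 to 20.8 CPM (median 16.6) in hippocampus and 5.35 to 8.02 CPM (median 6.21) in cortex. All 3 separated the regions fully. Ntf3, the neurotrophin NT-3, had a log2 difference of 3.14 (SE 0.16) and Fgf2 of 0.58 (SE 0.12). Pcp4, a calmodulin regulator found in CA2 and in deep cortical layers, was at 71.4 to 96.2 CPM (median 79.7) in hippocampus and 118 to 159 CPM (median 124) in cortex and thus higher in cortex. Ptpn5, the striatal-enriched phosphatase STEP, was also higher in cortex, by a log2 difference of -0.18, with overlap.

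In CA1 and the subiculum, 9 of 14 tested genes were higher in hippocampus, 3 in cortex, and the median was 0.75. Wfs1, the endoplasmic reticulum protein wolframin, was at 301 to 471 CPM (median 347) in hippocampus and 125 to 193 CPM (median 174) in cortex. Htr1a, the inhibitory serotonin 5-HT1A receptor, was at 24 to 31 CPM (median 28.3) in hippocampus and 6.17 to 9.48 CPM (median 8.16) in cortex, and Ndst4, a heparan sulfate sulfotransferase, at 6.12 to 16.2 CPM (median 9.04) in hippocampus and 0 to 4.74 CPM (median 0.185) in cortex. For Ndst4 a single cortical library carried most of the cortical level. Gpc3, a glypican (1.89), Crym, a thyroid-hormone-binding protein (0.81), the matrix protein Fn1 (0.70) and the mannosidase Man1a1 (0.46) also passed. The Fn1 call was lost without rat 41, 45 or 61. Among the 3 that were higher in cortex were Cntn6, a contactin (-0.98), and Pex5l, which traffics HCN channels (-0.48).

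Most calls on these 4 lists were shared by the other rats. In ApoE4 PBS, ApoE3 doxorubicin and ApoE4 doxorubicin rats, 9, 10 and 10 of the 11 dentate calls passed in the same direction, 12, 13 and 13 of the 13 CA3 calls, 7, 8 and 8 of the 8 CA2 calls, and 11 of the 12 CA1 calls in each.

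Genes that pattern the hippocampus or are shared by its fields were higher in hippocampus in 17 of 21 tested, with 1 higher in cortex and a median of 0.72. All 18 calls passed in the same direction in ApoE4 PBS rats and in ApoE4 doxorubicin rats, and 17 in ApoE3 doxorubicin rats. Wipf3, an actin regulator, was at 331 to 433 CPM (median 389) in hippocampus and 64.1 to 94.4 CPM (median 74) in cortex, and Nr3c2, the mineralocorticoid receptor, at 73.1 to 86.5 CPM (median 80.5) in hippocampus and 13 to 22 CPM (median 18.8) in cortex. Lhx9, a LIM-homeobox factor, was at 7.22 to 9.86 CPM (median 8.44) in hippocampus and 0.246 to 1.44 CPM (median 0.551) in cortex, and the Wnt receptor Fzd7 at 3.66 to 7.59 CPM (median 5.86) in hippocampus and 1.15 to 2.27 CPM (median 1.59) in cortex. All 4 were without overlap. Of the basic helix-loop-helix factors of excitatory neurons, Neurod6 differed by 1.24 (SE 0.06) and Neurod2 by 0.75 (SE 0.05).

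Transcription factors of hippocampal development differed by less. Emx2, a homeobox factor needed for the hippocampal primordium, was at 15.2 to 21.8 CPM (median 19) in hippocampus and 9.55 to 14.3 CPM (median 11.8) in cortex, a difference of 0.72 (SE 0.08). Zbtb20, a zinc-finger factor of CA1 identity, differed by 0.56 (SE 0.12), Lhx2 by 0.38 (SE 0.06), and the nuclear factor I genes Nfib and Nfia by 0.47 (SE 0.06) and 0.37 (SE 0.06). Nfix, of the same family (Nf1x in the deposited table), did not pass (-0.06 (SE 0.04), adjusted p 0.249), nor did the Wnt effector Lef1 (0.19 (SE 0.16), adjusted p 0.34). The sulfotransferase gene Hs3st1 was the 1 gene higher in cortex (-0.25), and without rats 37, 41 and 58 it did not pass and none was higher in cortex.

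Most cortical layer genes ran toward cortex. Of 20 tested upper-layer genes, 13 were higher in cortex, 6 higher in hippocampus and 1 did not pass, at a median of -0.78. Lamp5, a lysosome-associated membrane protein of upper-layer and neurogliaform neurons, was at 36.4 to 46.1 CPM (median 42.8) in hippocampus and 178 to 242 CPM (median 219) in cortex. Mef2c, an activity-dependent MADS-box factor, was at 106 to 161 CPM (median 127) in hippocampus and 618 to 793 CPM (median 727) in cortex. Cux2, the homeobox factor of layers 2 to 4, was at 28.3 to 41.8 CPM (median 34.7) in hippocampus and 89.7 to 114 CPM (median 99.1) in cortex. The regions did not overlap for any of the 3. Pou3f2 (Brn2) differed by -1.73 (SE 0.07), Stard8, a GTPase-activating protein, by -1.61 (SE 0.09), Cux1 by -0.80 (SE 0.07) and Lmo4 by -0.83 (SE 0.06). Higher in hippocampus were Mdga1, a synaptic adhesion modulator (1.42), Wfs1, Cartpt, the CART peptide (1.10), Unc5d, a netrin receptor (0.80), Plcxd2 (0.75) and Pcdh8 (0.63).

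Of 29 tested deep-layer genes, 16 were higher in cortex, 6 in hippocampus and 7 did not pass, at a median of -0.40. Tbr1, the T-box factor of layer 6 corticothalamic neurons, was at 18.2 to 27.8 CPM (median 22.9) in hippocampus and 65.6 to 99.6 CPM (median 79.8) in cortex. Rprm, the cell-cycle regulator reprimo, was at 3.91 to 6.57 CPM (median 4.85) in hippocampus and 24.8 to 44.4 CPM (median 34) in cortex. Both separated the regions fully. Fezf2, the selector of layer 5 subcerebral neurons, was at 24.1 to 36.5 CPM (median 30.0) in hippocampus and 30.5 to 40.8 CPM (median 35.8) in cortex and missed the threshold (-0.21 (SE 0.08), adjusted p 0.0531). Its partner Bcl11b (Ctip2), also a factor of dentate and CA1 neurons, was at 104 to 149.8 CPM (median 120.4) in hippocampus and 36.9 to 59.5 CPM (median 45.2) in cortex, higher in every hippocampal library. Nr4a2, the orphan nuclear receptor of layer 6b, was higher in hippocampus too (1.00 (SE 0.09)). Vat1l, of layer 5, and Cplx3, of layer 6b, each had 1 hippocampal library far above the rest: their hippocampal ranges were 19.9 to 130.0 CPM (median 26.6) and 1.83 to 65 CPM (median 5.13). In the other 3 sets of rats, 19, 18 and 18 of the 19 upper-layer calls and 19, 21 and 22 of the 22 deep-layer calls passed in the same direction. Without rats 37, 41 and 58, 12 upper-layer and 13 deep-layer genes were higher in cortex.

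**Figure D3:**
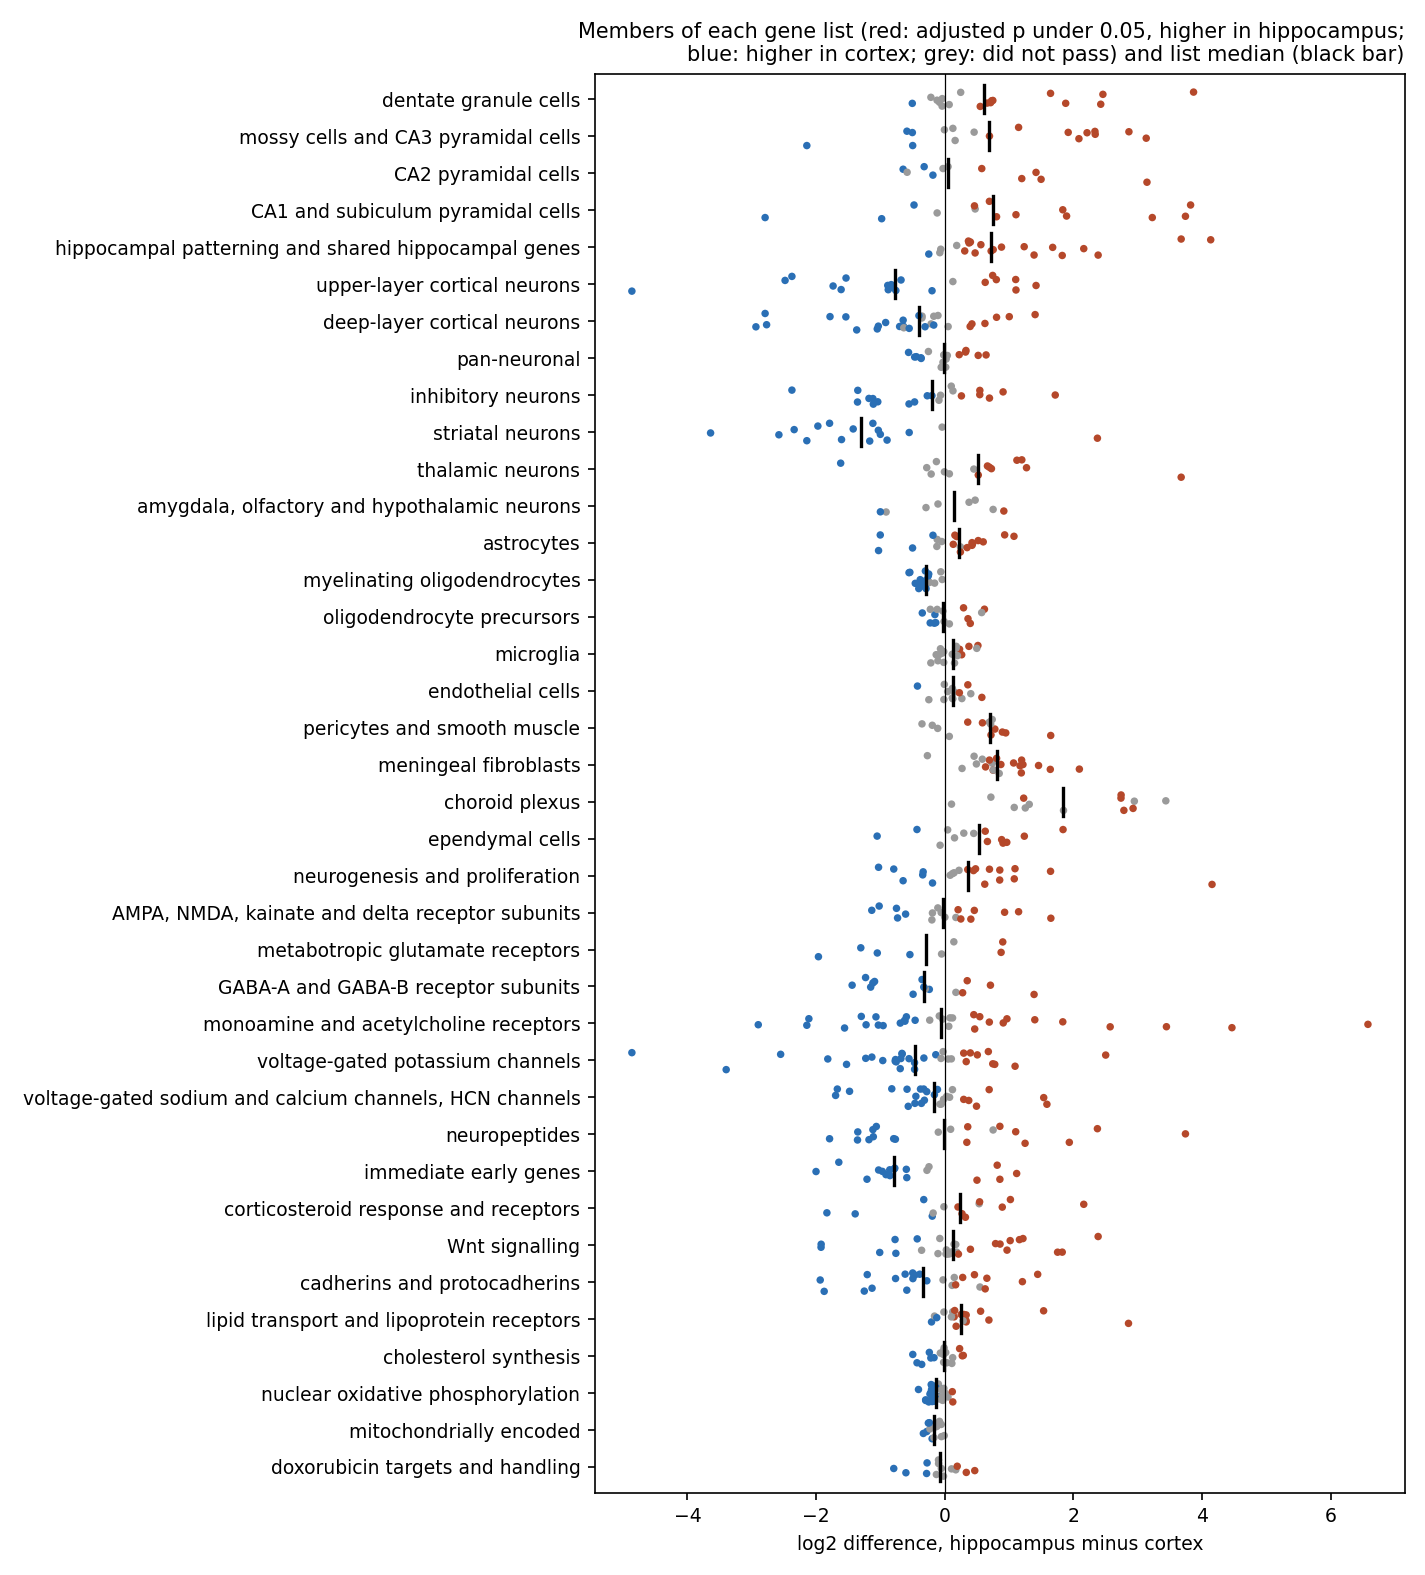
Fitted log2 difference, hippocampus minus cortex, of the tested genes of each list, 1 point per gene (red: higher in hippocampus, blue: higher in cortex, grey: did not pass), with the list's median as a black bar. Most points of the patterning list are red (17 of 21) and most of the striatal list blue (14 of 16), against 23.9% and 25.3% of all genes.

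General neuronal genes were divided evenly, near the shares of all genes (23.9% toward hippocampus and 25.3% toward cortex). In the pan-neuronal list, 5 of 18 tested genes were higher in hippocampus and 5 in cortex, at a median of -0.01 and a summed level of 14520.0 to 16570.0 CPM (median 15810.0) in hippocampus and 14100.0 to 16830.0 CPM (median 15420.0) in cortex. Camk2b and Camk2a, the subunits of the calcium/calmodulin kinase of excitatory synapses, differed by 0.64 (SE 0.04) and 0.52 (SE 0.04), and Slc17a7, the vesicular glutamate transporter VGLUT1, by 0.32 (SE 0.03). The synaptic release gene Snap25 was at 1557 to 1773 CPM (median 1728) in hippocampus and 2168 to 2967 CPM (median 2498) in cortex, a difference of -0.56 (SE 0.04), Syn1 (synapsin 1) differed by -0.44 (SE 0.04) and Rbfox3 (NeuN) by -0.37 (SE 0.03).

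Glutamate receptor subunits ran in both directions. Of 18 tested ionotropic subunits, 7 were higher in hippocampus and 5 in cortex. Gria1, the AMPA receptor subunit GluA1, was at 455 to 541 CPM (median 480.4) in hippocampus and 122 to 188 CPM (median 161) in cortex, while Gria3 was at 218 to 278 CPM (median 255) in hippocampus and 384 to 477 CPM (median 425) in cortex. Both pairs of ranges were separate, in opposite directions. Gria4 also ran toward cortex (-0.73 (SE 0.06)). The kainate subunit Grik4 and the delta receptor gene Grid1 (0.41 (SE 0.05)) were higher in hippocampus, and the NMDA subunit Grin2b (GluN2B) was higher in cortex, at 45.8 to 65 CPM (median 53.6) in hippocampus and 68.4 to 98.2 CPM (median 83.8) in cortex. Among 8 metabotropic receptors, 2 were higher in hippocampus, among them Grm6 (0.90 (SE 0.14)), and 4 in cortex. The cortical ones of smallest p were the presynaptic or glial receptors Grm3 at 40.9 to 59.4 CPM (median 46.5) in hippocampus and 93.4 to 139 CPM (median 115) in cortex, Grm8 with -1.96 (SE 0.14) and Grm4 with -1.05 (SE 0.15). The Grm5 difference of 0.14 (SE 0.08) did not pass (adjusted p 0.143).

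GABA receptor genes were likewise divided, with 4 of 15 tested higher in hippocampus and 9 in cortex. Gabra5, the subunit of extrasynaptic hippocampal receptors, was at 165 to 211 CPM (median 186) in hippocampus and 60.0 to 92.4 CPM (median 70.6) in cortex, and Gabra2 differed by 0.71 (SE 0.05). Gabrd, the delta subunit, was at 17.6 to 24.8 CPM (median 20.0) in hippocampus and 51.3 to 61.3 CPM (median 55.2) in cortex, higher in every cortical library. Gabra3 differed by -1.15 (SE 0.07) and the GABA-B subunit gene Gabbr1 by 0.28 (SE 0.03).

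Of 32 tested receptors for serotonin, dopamine, noradrenaline, histamine and acetylcholine, 12 were higher in hippocampus, 14 in cortex and 6 did not pass. Besides Htr5b and Htr1a, the muscarinic M5 receptor gene Chrm5 was at 4.42 to 7.67 CPM (median 6.35) in hippocampus and 0.0615 to 0.401 CPM (median 0.312) in cortex, a log2 difference of 4.47 (SE 0.22). Htr2a, the excitatory 5-HT2A receptor, was at 7.27 to 11.6 CPM (median 10.2) in hippocampus and 31.5 to 52.8 CPM (median 43.3) in cortex, and Chrna4, a nicotinic subunit, at 15.3 to 28 CPM (median 19.6) in hippocampus and 46.8 to 72.3 CPM (median 61.1) in cortex. The muscarinic M4 gene Chrm4 differed by -0.62 (SE 0.05). No library of 1 region entered the range of the other for these genes, which were picked by their small p. For 19% of all genes the libraries of the regions did not overlap. Of the 26 calls of this list, 25, 26 and 26 passed in the same direction in the other 3 sets of rats.

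**Figure D4:**
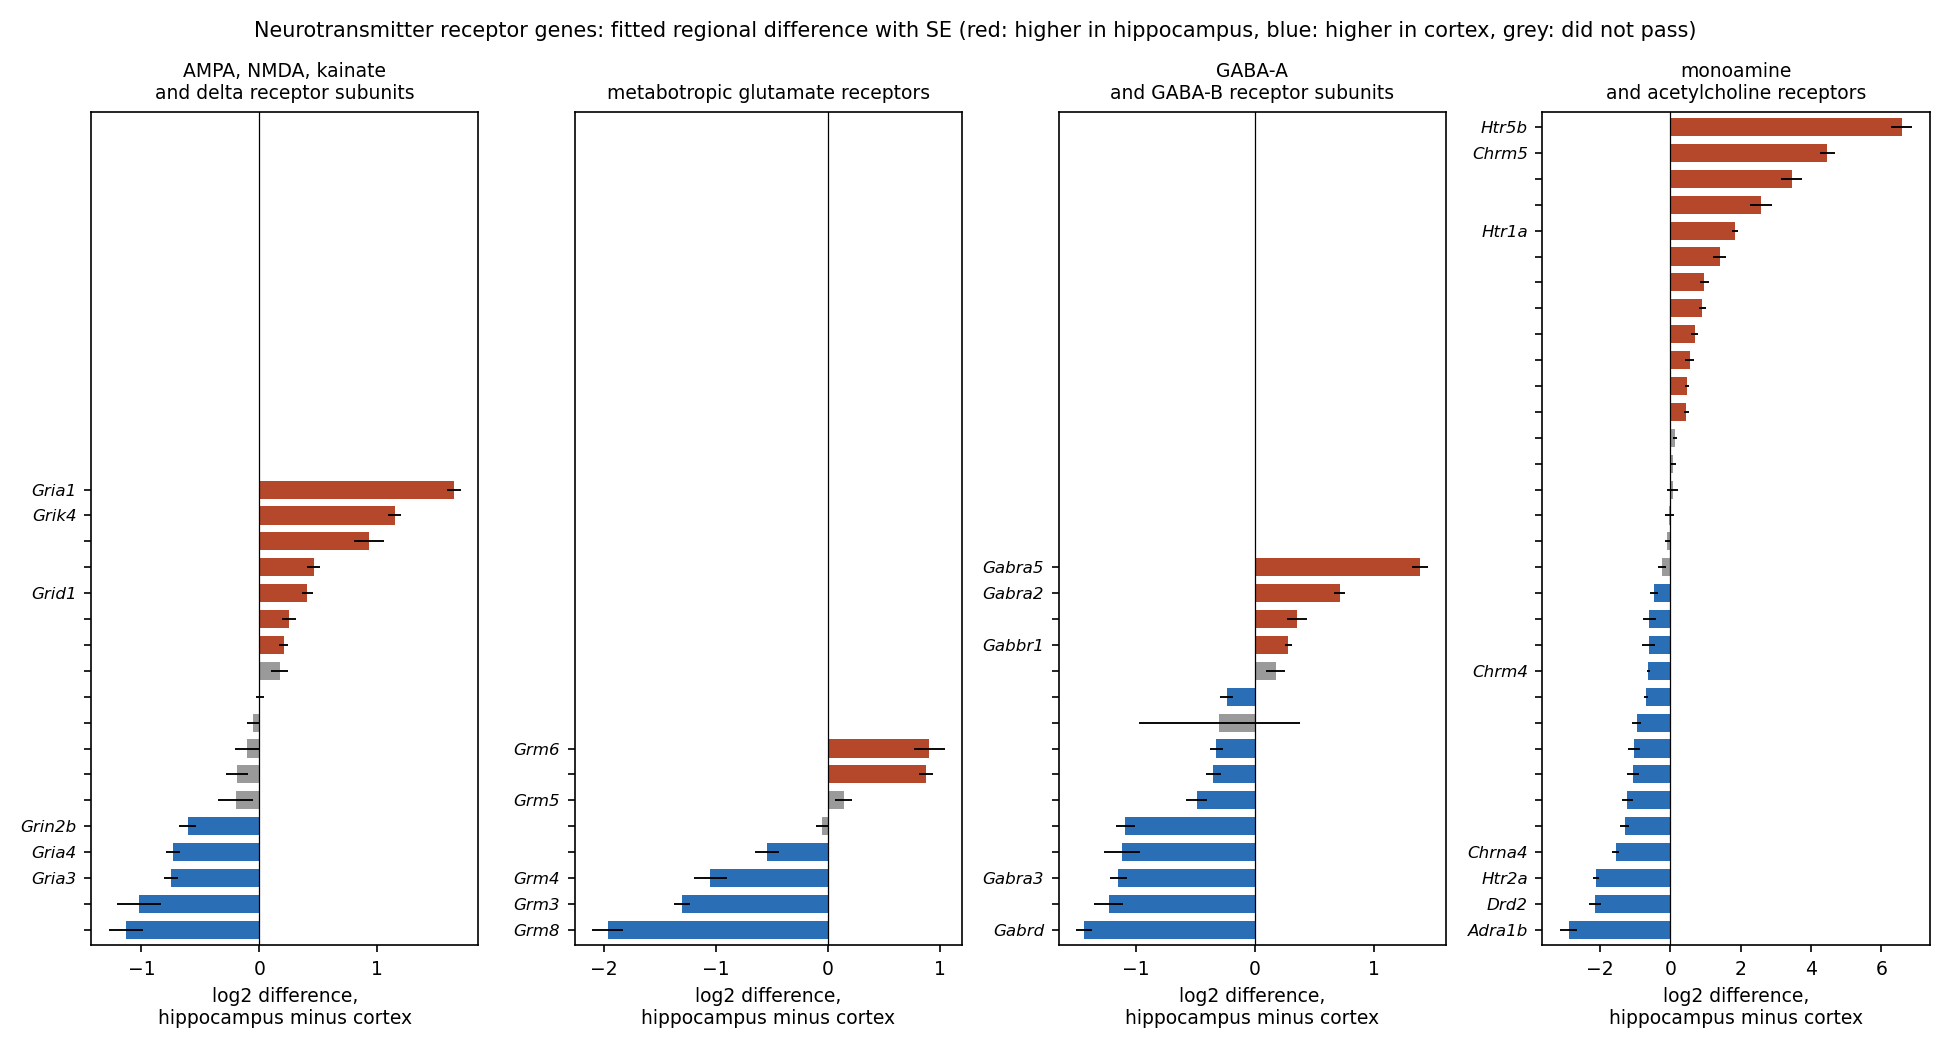
Fitted log2 difference between hippocampus and cortex for the tested genes of 4 neurotransmitter receptor lists, as bars with SE (red: higher in hippocampus, blue: higher in cortex, grey: did not pass) and names for those described in the text. Paralogs lie on both sides of 0, such as Gria1 at 1.65 and Gria3 at -0.75, or Htr1a at 1.84 and Htr2a at -2.11.

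Voltage-gated potassium channel genes were higher in cortex in 20 and in hippocampus in 9 of 33 tested, at a median of -0.47. Beside Kcnh5 and Kcnh7, Kcnh3 was at 82.7 to 104 CPM (median 88.4) in hippocampus and 139 to 173 CPM (median 153) in cortex. On the hippocampal side the modulatory subunit Kcng2 was at 36.9 to 53.1 CPM (median 46) in hippocampus and 6.89 to 8.44 CPM (median 7.87) in cortex, Kcng1 differed by 1.09 (SE 0.08) and the beta subunit gene Kcnab2 by 0.78 (SE 0.04). These ranges did not overlap. Of 27 sodium, calcium and HCN channel genes, 15 were higher in cortex and 6 in hippocampus. Scn1a, the sodium channel of fast-spiking interneurons, was at 31.4 to 48.2 CPM (median 42.4) in hippocampus and 91 to 171 CPM (median 127) in cortex, and the beta subunit gene Scn4b differed by -1.70 (SE 0.10). A different beta subunit, Scn3b, was at 567 to 791 CPM (median 668) in hippocampus and 206 to 259.6 CPM (median 229.5) in cortex, and the T-type calcium channel gene Cacna1h at 217 to 249 CPM (median 222) in hippocampus and 63.4 to 93.3 CPM (median 74.2) in cortex. Both were higher in all hippocampal libraries. Cacna1c, an L-type channel, differed by 0.69 (SE 0.06) and Cacnb4 by -1.48 (SE 0.11).

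Genes of inhibitory neurons were higher in cortex in 11 and in hippocampus in 6 of 21 tested. Sst (somatostatin) was at 38.4 to 51.6 CPM (median 43) in hippocampus and 90.1 to 109 CPM (median 94.5) in cortex, and Cck (cholecystokinin), also made by cortical excitatory neurons, at 125 to 188 CPM (median 144) in hippocampus and 298 to 393 CPM (median 337) in cortex. Vip, of interneurons that inhibit other interneurons, was at 7.86 to 16.1 CPM (median 12.7) in hippocampus and 27.8 to 37.2 CPM (median 32.6) in cortex. All cortical libraries were above all hippocampal ones. Nos1, nitric oxide synthase, was higher in hippocampus (0.91 (SE 0.11)). Of the neuropeptide list, 8 of 20 tested genes were higher in hippocampus and 9 in cortex. Pdyn (prodynorphin), a peptide of mossy fibres, was at 84.1 to 138 CPM (median 94.5) in hippocampus and 11.5 to 25.7 CPM (median 20.5) in cortex, and Scg2 (secretogranin II) at 252 to 284 CPM (median 271) in hippocampus and 92.9 to 131 CPM (median 112) in cortex, both higher in all hippocampal libraries.

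Lists for neighbouring forebrain tissue were read out because dissected tissue can include it. Striatal genes were higher in cortex in 14 of 16 tested, at a median of -1.29. Their summed level was 326 to 411 CPM (median 361) in hippocampus and 457 to 706 CPM (median 584) in cortex. Ppp1r1b (DARPP-32), of dopamine-sensitive neurons, was at 80.2 to 107 CPM (median 87.6) in hippocampus and 143 to 216 CPM (median 164) in cortex, and the orphan receptor gene Gpr52 at 1.18 to 2.95 CPM (median 1.84) in hippocampus and 6.95 to 11.8 CPM (median 9.67) in cortex. Both also occur in cortical neurons, and the part of adjoining striatum in the cortical values was not tested. The 1 striatal gene higher in hippocampus was Pdyn. Thalamic genes were higher in hippocampus in 8 of 15 and in cortex in 1, Ramp3 (-1.62 (SE 0.12)). The members of smallest p were Plekhg1, a guanine nucleotide exchange factor (1.27), Lhx9, which is on the patterning list too, and Amotl1, a cell-junction protein (1.12), and 5 of the 9 calls passed in the same direction in ApoE4 PBS rats. Of 18 genes listed for amygdala, olfactory bulb and hypothalamus, 10 were found in the count rows and 8 of these passed the count filter. Pomc was higher in hippocampus (0.92), with 1 library at the maximum of its range of 2.15 to 27.9 CPM (median 2.92), and did not pass without rat 43, 58, 59 or 61, while Meis1 was higher in cortex (log2 difference -0.999). None was higher in hippocampus and 2 were higher in cortex without rats 37, 41 and 58.

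Immediate early genes, switched on by neuronal activity within minutes, were higher in cortex in 12 of 18 tested and higher in hippocampus in 4, at a median of -0.78. Egr1 was at 69.9 to 143 CPM (median 107) in hippocampus and 129 to 304 CPM (median 248) in cortex, and Egr4 at 9.46 to 15.4 CPM (median 12.8) in hippocampus and 19.1 to 33.7 CPM (median 25.4) in cortex. Homer1, a scaffold gene with an activity-induced short form, was at 35 to 54.7 CPM (median 43.7) in hippocampus and 66.8 to 91.1 CPM (median 76.9) in cortex. Egr4 and Homer1 did not overlap, while for Egr1 a low cortical library entered the hippocampal range. The summed level of the list was 648 to 1009 CPM (median 858) in hippocampus and 732 to 1478 CPM (median 1246) in cortex, and the lowest cortical sum came from rat 58. Jun (0.50), Nr4a3 (1.12) and the neurotrophin gene Bdnf (0.86) ran toward hippocampus. All 16 calls passed in the same direction in each of the other 3 sets. The order and time of tissue collection were not tested.

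Corticosteroid genes were higher in hippocampus in 7 of 14 tested and in cortex in 4. Beside Nr3c2, Fkbp5, a chaperone induced by glucocorticoids, was at 68.1 to 89.9 CPM (median 85.1) in hippocampus and 38.2 to 50.1 CPM (median 45.6) in cortex, higher in all hippocampal libraries, and the metallothionein gene Mt1 differed by 1.02 (SE 0.16). Crhr1, the receptor of corticotropin-releasing hormone, was at 2.58 to 5.81 CPM (median 3.95) in hippocampus and 12.3 to 16.5 CPM (median 14.8) in cortex and its binding protein Crhbp at 3.91 to 8.52 CPM (median 6.62) in hippocampus and 14.9 to 18.7 CPM (median 16.8) in cortex. Both were higher in all cortical libraries, and the clock gene Per1 differed by -0.33 (SE 0.08).

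Wnt pathway genes, which guide hippocampal development and adult synapses, were higher in hippocampus in 11 of 28 tested and in cortex in 6. The ligand gene Wnt4 was at 55.8 to 68.8 CPM (median 62.2) in hippocampus and 9.97 to 13.5 CPM (median 11.9) in cortex, the signal enhancer Rspo2 at 78.9 to 103 CPM (median 90.5) in hippocampus and 21.2 to 33 CPM (median 27.2) in cortex, and the ligand Wnt7b differed by 1.16 (SE 0.06). Toward cortex ran the ligand Wnt10a (-1.92 (SE 0.15)), the receptor Fzd3 (-1.92 (SE 0.18)) and the enhancer Rspo1 (-0.76 (SE 0.11)). Regional ranges were separate for all 6. Of 24 tested cadherins and protocadherins, adhesion proteins that sort neurons, 13 were higher in cortex and 7 in hippocampus. Cdh9, of the mossy fibre to CA3 synapse, was at 39.2 to 53.8 CPM (median 49.8) in hippocampus and 17.4 to 22.8 CPM (median 20.2) in cortex, Pcdh19 differed by 1.45 (SE 0.08), Cdh7 by -1.93 (SE 0.12), Cdh18 by -1.25 (SE 0.08) and Pcdh10 by -0.76 (SE 0.05).

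Genes of adult neurogenesis and proliferation were higher in hippocampus in 11 of 21 tested and in cortex in 6. Neurog2, a proneural factor, was at 1.33 to 2.36 CPM (median 1.88) in hippocampus and 0 to 0.24 CPM (median 0.0973) in cortex, low in both regions. The cyclin gene Ccnd2 was at 43.2 to 68.8 CPM (median 61.9) in hippocampus and 27.4 to 36.7 CPM (median 33) in cortex and the tubulin gene Tubb2b at 154 to 210.5 CPM (median 179) in hippocampus and 96.4 to 126 CPM (median 119) in cortex, both higher in all hippocampal libraries. Dcx (doublecortin), used as a marker of newborn granule cells and present in other immature neurons too, was at 37.3 to 48.5 CPM (median 44.2) in hippocampus and 62.3 to 76.4 CPM (median 67.4) in cortex, higher in all cortical libraries, and Top2a differed by -0.79 (SE 0.16). Without rats 37, 41 and 58 the counts were 9 and 3.

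The rat gene Apoe and the donor sequence were both higher in hippocampus. The row for the ApoE3 donor sequence was at 2260.2 to 3201 CPM (median 2574) in hippocampus and 1295 to 2291 CPM (median 1805) in cortex, a difference of 0.55 (SE 0.10) (adjusted p 0.000377). The row for rat Apoe was at 5.1 to 8.78 CPM (median 6.25) in hippocampus and 3.16 to 5.94 CPM (median 4.16) in cortex, a difference of 0.56 (SE 0.12) (adjusted p 0.00161), with overlap. How reads shared by these like sequences were assigned is not given in the sources used here. In the 3 other sets the Apoe differences were 0.30, 0.36 and 0.76 and the donor differences 0.44, 0.45 and 0.51. The donor values of ApoE4 rats come from the same row, which is named for ApoE3. Of 19 tested genes of lipid transport, 12 were higher in hippocampus and 2 in cortex, at a median of 0.26. Lpl, the lipoprotein lipase, was at 62.2 to 94.5 CPM (median 71.4) in hippocampus and 7.53 to 13.6 CPM (median 9.71) in cortex, without overlap. Apoc1, an apolipoprotein, differed by 1.54 (SE 0.17), the fatty-acid carrier Fabp7 by 0.69 (SE 0.09) and Apod by -0.20 (SE 0.06). The counts of this list were 12 and 0 without rats 37, 41 and 58. In cholesterol synthesis 3 of 18 were higher in hippocampus and 6 in cortex, among them the prenyl synthase gene Fdps, with -0.36 (SE 0.04).

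Astrocyte genes were higher in hippocampus in 12 of 20 tested and in cortex in 4, at a median of 0.21. Gfap, the astrocyte intermediate filament, was at 974 to 1401 CPM (median 1042) in hippocampus and 408 to 706 CPM (median 536) in cortex, a difference of 1.08 (SE 0.06), and in the 3 other sets of rats the differences were 0.93, 1.20 and 0.90. The water channel gene Aqp4 was at 541 to 740.4 CPM (median 619) in hippocampus and 327 to 520.0 CPM (median 418) in cortex, and Agt (angiotensinogen) at 157 to 220.3 CPM (median 171) in hippocampus and 76.6 to 111 CPM (median 92.6) in cortex. The ranges were separate for all 3. In the other direction, Hopx differed by -1.03 (SE 0.06), the hedgehog effector Gli1 by -1.001 and Itih3 by -0.50 (SE 0.06).

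Genes of myelinating oligodendrocytes were higher in cortex in 15 of 19 tested and in hippocampus in none, with a median of -0.29, so the differences were small. Mbp, myelin basic protein, was at 3398 to 4468 CPM (median 4126) in hippocampus and 4087 to 6800.1 CPM (median 5067) in cortex, a difference of -0.37 (SE 0.07), and Tspan2, a tetraspanin, at 124 to 168 CPM (median 152) in hippocampus and 177 to 251 CPM (median 225) in cortex. Mbp overlapped between the regions and Tspan2 did not. Opalin differed by -0.46 (SE 0.04) and Ermn by -0.54 (SE 0.05). Fewer of these calls were made in other rats: 10 of the 15 calls passed in the same direction in ApoE4 PBS, 2 in ApoE3 doxorubicin and 5 in ApoE4 doxorubicin rats, and the Mbp differences there were -0.21, -0.06 and -0.10. Precursor genes were divided, with 4 of 15 higher in hippocampus, led by Pdgfra (0.62 (SE 0.08)), and 5 in cortex, led by Bcas1 (-0.35 (SE 0.07)). Of all genes, 23.9% and 25.3% were called in these directions. The precursor counts were 3 and 1 without rats 37, 41 and 58. Of the 9 precursor calls, 3, 4 and 4 passed in the same direction in the 3 other sets. Of 18 tested microglial genes, 4 passed, all toward hippocampus, which is near the 23.9% of all genes called in that direction. Among the 4 were Cx3cr1 at 0.23 (SE 0.05), Csf1r at 0.26 (SE 0.06) and C1qc at 0.38 (SE 0.10), while P2ry12 did not pass (-0.13 (SE 0.08), adjusted p 0.192).

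Lists of the tissues that border the brain regions varied widely between libraries. Of the choroid plexus list, 17 genes were found in the count rows and 13 were tested. The 17 genes summed to 134 to 4729 CPM (median 299) in hippocampus and 154 to 1201 CPM (median 179) in cortex. Of the hippocampal libraries, rat 37 had 4729 CPM and rat 41 had 1320 CPM, and of the cortical ones rat 58 had 1201 CPM, where all other 13 libraries lay between 133.7 and 425.9 CPM. Ttr, transthyretin, the most abundant gene of this epithelium, was at 4.28 to 2933 CPM (median 57.9) in hippocampus and 1.28 to 767 CPM (median 4.73) in cortex and did not pass (3.44 (SE 1.61), adjusted p 0.0927). Of the list, 5 genes were higher in hippocampus and none in cortex. Cldn1 (2.74 (SE 0.34)), Slc13a4 (1.23 (SE 0.34)) and F5 (2.74 (SE 1.02)) had the smallest p. F5 did not pass without rat 37, 41, 43, 45 or 59. Without rats 37, 41 and 58, 7 of 13 were higher in hippocampus and 1 in cortex.

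Meningeal fibroblast genes were higher in hippocampus in 13 of 21 tested and in cortex in none, at a median of 0.81, with a summed level of 343 to 3650.0 CPM (median 1369) in hippocampus and 550.1 to 924 CPM (median 708) in cortex. The highest sums were those of the hippocampus of rats 61 and 41, at 3650.0 and 2957 CPM. The collagen-binding proteoglycans Lum and Dcn differed by 2.09 (SE 0.26) and 1.64 (SE 0.21). Few of these calls were shared by other rats: 2 of the 13 passed in the same direction in each of the other 3 sets, and 4 passed in the opposite direction in at least 1. Pericyte and smooth muscle genes were higher in hippocampus in 7 of 14, led by Notch3 (0.78 (SE 0.12)), and none of the 7 passed in the same direction in any of the other sets, while 2 passed in the opposite direction in at least 1. Their summed level was 222 to 662 CPM (median 419) in hippocampus and 252 to 317 CPM (median 270.3) in cortex. Without rats 37, 41 and 58, the counts toward hippocampus were 5 of 21 and 3 of 14. Of 14 endothelial genes, 3 were higher in hippocampus, Tek (0.36 (SE 0.09)), Vwf (0.58 (SE 0.20)) and Ocln (0.23 (SE 0.08)), and Emcn was higher in cortex (-0.42 (SE 0.09)). Of all genes, 23.9% were higher in hippocampus and 25.3% in cortex. Vwf did not pass without rat 41, 45, 59 or 61, nor Ocln without rat 41, 58 or 61. With rats 37, 41 and 58 left out, 1 endothelial gene was higher in hippocampus and 2 were higher in cortex. Of the 4 endothelial calls, 1 passed in the same direction in each of the other sets and 3 passed in the opposite direction in at least 1. The part of adhering meninges and vessels in the hippocampal values was not tested.

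Of 14 tested ependymal genes, from the ciliated lining of the ventricles, 7 were higher in hippocampus and 2 in cortex, and all 9 calls passed in the same direction in each of the other sets. The counts were 4 and 2 without rats 37, 41 and 58. The axonemal dynein gene Dnah9 was at 87.8 to 127 CPM (median 101) in hippocampus and 23.1 to 31.7 CPM (median 29.7) in cortex, higher in all hippocampal libraries, Ccdc153 differed by 0.91 (SE 0.18) and Cfap43 by 0.97 (SE 0.19). Enkur (-1.05 (SE 0.09)) and Ccdc39 (-0.43 (SE 0.08)), also genes of motile cilia, ran toward cortex.

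**Figure D5:**
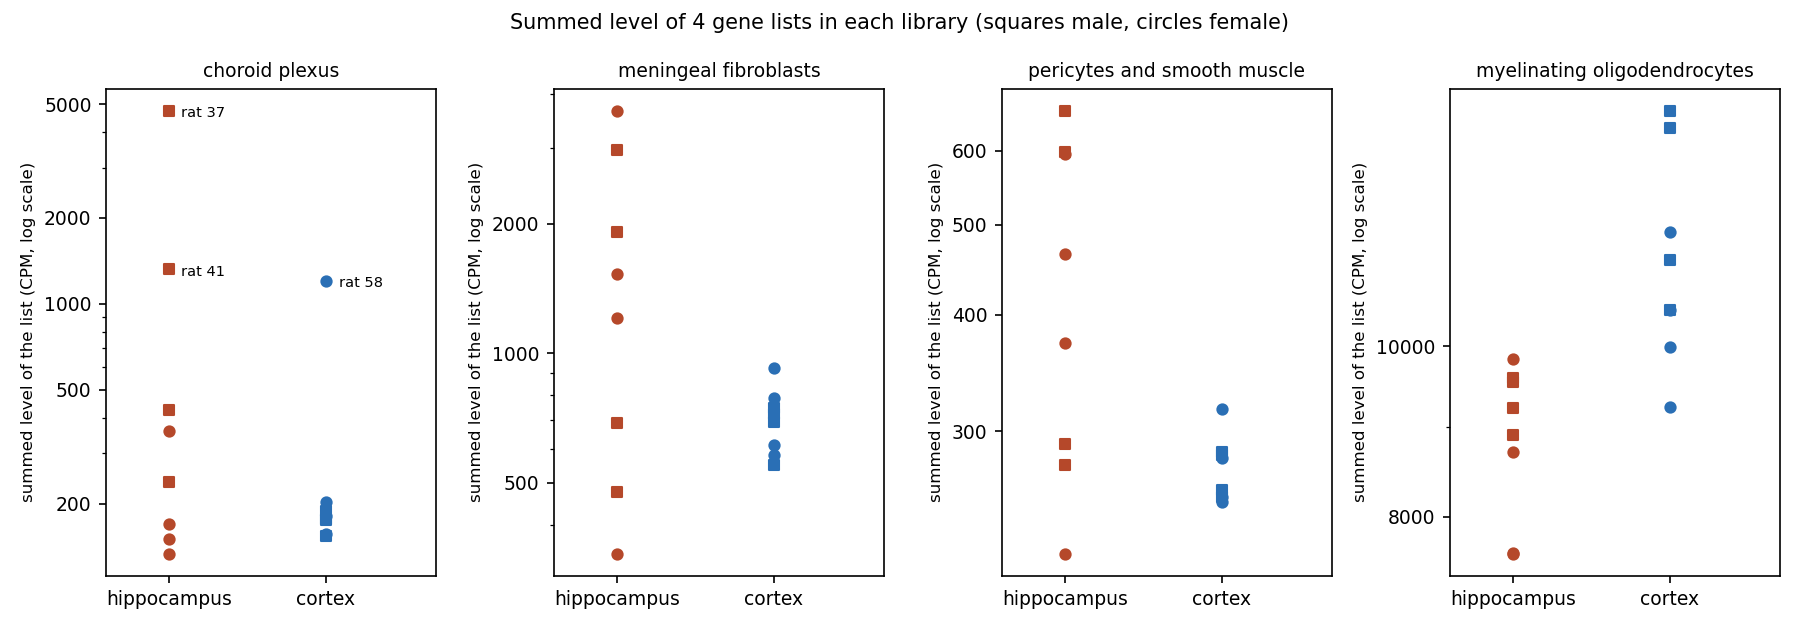
Summed level of 4 gene lists in each library (CPM, log scale), by region, with males as squares and females as circles. Choroid plexus genes stand apart in the hippocampus of rats 37 and 41 and the cortex of rat 58, meningeal and pericyte sums spread widely in hippocampus and little in cortex, and myelin sums are shifted toward cortex with overlap.

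Among genes of mitochondrial respiration, most that passed were slightly higher in cortex. Of 31 tested nuclear genes of oxidative phosphorylation, 19 were higher in cortex and 2 in hippocampus, at a median of -0.14. Without rats 37, 41 and 58 these counts were 15 and 1. In ApoE4 PBS, ApoE3 doxorubicin and ApoE4 doxorubicin rats, 11, 13 and 12 of the 21 calls passed in the same direction. The complex I genes Ndufs3 and Ndufb5 differed by -0.41 (SE 0.06) and -0.29 (SE 0.05). Of the 13 mitochondrially encoded genes, 8 did not pass. The other 5 were higher in cortex, with Mt-co1 at -0.33 (SE 0.08). The mitochondrial share of counts given above ran the same way (exact paired permutation p 0.0781), but it includes these genes and is no separate result. Of these 5 calls, 4, 5 and 2 passed in the same direction in the 3 other sets of rats. Among 14 genes for the targets and handling of doxorubicin, in rats that had not received it, 4 were higher in cortex and 3 in hippocampus. These counts were near the shares of all genes, 25.3% and 23.9%. Top2b, the topoisomerase of non-dividing cells, differed by -0.27 (SE 0.04), and the efflux pump gene Abcb1b by 0.47 (SE 0.07).

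Whether the regional difference depends on sex was tested by an interaction term. None of 14981 genes passed in either direction (0%). At an unadjusted p under 0.05 there were 1419 genes (9.47%), and the smallest adjusted p was 0.378. DESeq2 called 3 genes with a difference further toward hippocampus in females and 11 further toward cortex. In data simulated for this comparison on 14981 genes, 64% of 100 genes whose regional difference changed 2-fold between the sexes were recovered.

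Relative to ApoE4 PBS rats, the regional difference changed for 23 of 15415 genes (0.149%), 6 toward hippocampus (0.0389%) and 17 toward cortex (0.11%) in ApoE4. Tmtc4, a transmembrane protein of the endoplasmic reticulum, had the smallest p. Its hippocampal median was 55.5 CPM in ApoE3 and 34.9 CPM in ApoE4 rats, while the cortical medians were 24.8 and 25.7 CPM, and the log2 difference went from 1.14 to 0.44 (adjusted p 1.52e-05). The hippocampal ranges, 52.8 to 61.4 and 27.9 to 38.4 CPM, did not overlap. Pdyn went from 2.37 to 1.44, with hippocampal medians of 93.2 and 60.1 CPM. For Dpyd, the pyrimidine-degrading enzyme, from 1.91 to 0.92, it was the cortical median that differed more, at 3.28 and 8.10 CPM. Trim54 went from -3.29 to -4.48. Toward hippocampus, Plekhh2 went from -0.07 to 0.67, Plk5 from 0.66 to 1.47, Pcp4 from -0.65 to -0.07 and the clock repressor gene Nr1d1 from -0.54 to -0.23. Rat numbers ran in blocks by genotype and treatment, so a batch following them cannot be told apart from either.

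Relative to ApoE3 doxorubicin rats, the regional difference changed for 9 of 15428 genes (0.0583%), 4 toward hippocampus (0.0259%) and 5 toward cortex (0.0324%). The genes named toward hippocampus in treated rats were genes of myelinating oligodendrocytes. Fa2h, a fatty acid hydroxylase of myelin lipid synthesis, went from a log2 difference of -0.35 in PBS to 0.08 in doxorubicin rats (adjusted p 0.018), Ugt8 from -0.38 to 0.03 and Opalin from -0.46 to -0.11. Hippocampal medians of Fa2h were 35.4 CPM in PBS and 39.2 CPM in doxorubicin rats and cortical medians 43.6 and 36.9 CPM, with overlapping ranges. Toward cortex moved Col12a1 (0.92 to -0.03), Fgl2 (1.01 to -0.11), Cfd (1.96 to -0.43) and Tph1, the tryptophan hydroxylase of the pineal gland. Cfd was low in every group, with medians from 0.416 CPM (PBS cortex) to 1.82 CPM (PBS hippocampus). Tph1 rested on single libraries: the hippocampus of PBS rat 45 was at 1670 CPM, with the next PBS hippocampus at 29.6 CPM, and the cortex of doxorubicin rat 72 was at 145.2 CPM, with the next doxorubicin cortex at 1.296 CPM. Without the rat block none passed, and without rats 37, 41 and 58 none passed toward hippocampus and 3 toward cortex.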

How the data were processed

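RNA was taken from frozen tissue with the RNeasy Plus Universal mini kit and made into libraries with NEBNext Ultra II RNA reagents, per the labels' protocols. The submitters' processing notes name STAR 2.5.2b and DESeq2. The counter, its treatment of strand and shared reads, and the genome build are not given in the sources used here. The authors deposited raw counts per gene, in 32644 rows, of which 92 were ERCC spike-ins and stayed out of library sizes and tests. The remaining 32552 gene rows include 1 for the ApoE3 donor sequence. Library totals are given with the results. Deeper libraries give less counting error, and all 16 were of similar depth.

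Hippocampus and cortex were compared with edgeR 4.0.16 in R 4.3.3 (TMM scaling, filterByExpr, quasi-likelihood F-test, Benjamini-Hochberg adjustment over all 14981 genes tested, threshold 0.05), with the rat as a block. Pairing comes from the rat's number in the labels, since both samples are of 1 animal. Deviations of same-rat libraries from their region means correlated at 0.0545 to 0.259 (median 0.157), against a median of -0.0475 between different rats, and 4 of 8 libraries matched best with their own rat. Replicates are separate animals. No 2 libraries of a region agreed within sampling noise (chi-square per gene 4.55 to 27.2). Dependence on sex, genotype and treatment was tested by interaction terms with the same block.

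CPM values are TMM-scaled. Levels are given as the range and median over 8 libraries, log2 differences with their standard errors. CPM does not correct for gene length, so the tests compare samples, not genes. A gene called high or low is so in counts only, and long or abundant members weigh more in the summed level of a list.

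The 14 genes of largest difference in each direction were taken among those past the threshold, with at least 10 CPM in the higher region, the same direction in 8 of 8 rats, an official symbol and no place on a choroid plexus, ependymal, meningeal, pericyte or endothelial list. Of the dentate, CA3, CA2, CA1, patterning and layer lists any member could be described, of other lists the 3 of smallest p in each direction. From the genotype and treatment interactions, the 4 of smallest p in each direction were named. Apoe, Gfap, Mbp, Ttr and the 3 markers were always given. Some genes that these rules pick are not reported here, and they stay in all counts. The comparisons, the 38 lists (727 genes, 658 tested, 5 matched by a synonym) and these rules were chosen with earlier results of these data known.

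The procedure was tested on simulated counts, with 100 genes changed per fold size and all other genes unchanged. For the regional comparison on 14981 genes, 79% of genes changed 1.5-fold and 93% of those changed 2-fold were recovered, and 7.03% of calls were false. In the data 49.2% of genes were called for this comparison. Both rates depend on the share of changed genes and were not tested at so high a share. For the interaction with genotype (15415 genes) 63% and 85% were recovered, with treatment (15428 genes) 56% and 78%, and with sex (14981 genes) 42% and 64%. Alternatives were no block, DESeq2 1.42.0, other scaling, other filters, all 64 libraries in 1 fit, each sex alone and leaving out each rat. The contrast in ApoE4 doxorubicin rats and the removal of rats 37, 41 and 58 were added after seeing the data.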

Additional observations from a re-analysis of the deposited data

Results flagged for a closer look

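Of 522 groups of 8 libraries examined for a single extreme library (Dixon's test), 40 had one, or 7.66%, where chance gives about 5%. They gathered in a few animals, and each is given below as a level in CPM.

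Rat 37 held the highest hippocampal library for the choroid plexus list, at 4729 CPM, and for its members Ttr at 2933 CPM, F5 at 84.91 CPM and Cldn1 at 14.15 CPM. The same library was also the highest for Vat1l at 130 CPM, Nhlh1 at 17.88 CPM, Enkur at 15.92 CPM and Meis1 at 5.496 CPM. Its cortex was the highest for Plekhh2, at 52.67 CPM.

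In rat 58 it was the cortex that held the highest choroid plexus sum, 1201 CPM, with Ttr at 766.9 CPM, Slc13a4 at 31.51 CPM and F5 at 9.719 CPM. Vat1l at 76.38 CPM and Ramp3 at 21.71 CPM were highest there as well. The immediate early gene list was lowest in that library, at 731.8 CPM, as was Egr1 at 128.9 CPM. The hippocampus of rat 58 was highest for the list of nuclear oxidative phosphorylation genes, at 6801 CPM, and for Agt, at 220.3 CPM.

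The cortex of rat 56 was highest for several genes that were higher in hippocampus: Wipf3 at 94.41 CPM, Mdga1 at 19.58 CPM, Amotl1 at 11.63 CPM, Cartpt at 6.682 CPM, Ndst4 at 4.744 CPM and Slc9a4 at 3.408 CPM. Its Ndufs3 level, 70.16 CPM, was the lowest of the cortical libraries. The hippocampus of rat 56 was highest for Slc9a4 too, at 51.36 CPM.

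The cortex of rat 41 was highest for Neurod6 at 96.97 CPM, Grm4 at 35.18 CPM, Neurod1 at 27.33 CPM and the amygdala, olfactory and hypothalamic list at 191.1 CPM. The hippocampus of rat 45 was highest for Cplx3 at 65 CPM, Neurod1 at 48.77 CPM and Adra1b at 10.05 CPM, and lowest for Fabp7 at 58.89 CPM. In the hippocampus of rat 59, Drd2 was highest at 2.883 CPM and Fkbp5 lowest at 68.06 CPM. The hippocampus of rat 43 was highest for Pomc, at 27.91 CPM, and the cortex of rat 61 for Pcp4, at 158.7 CPM, and Chst9, at 1.139 CPM.

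The regional difference itself differed between groups for 15 named genes (edgeR, interaction term). Values are changes of the log2 difference, hippocampus minus cortex. From ApoE3 to ApoE4 PBS rats it moved by 0.81 for Plk5, 0.74 for Plekhh2, 0.58 for Pcp4 and 0.31 for Nr1d1, and by -0.70 for Tmtc4, -0.93 for Pdyn, -0.99 for Dpyd and -1.19 for Trim54. From PBS to doxorubicin in ApoE3 rats it moved by 0.41 for Fa2h, 0.41 for Ugt8 and 0.34 for Opalin, and by -0.96 for Col12a1, -1.13 for Fgl2, -2.41 for Cfd and -11.31 for Tph1. The Tph1 value rests on libraries near 0 counts and on 2 high libraries, the hippocampus of PBS rat 45 and the cortex of doxorubicin rat 72. Trim54 in hippocampus and Cfd in both regions were at low levels too, given above.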

How the results depend on the processing

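Over 13 counts and library values with alternatives, 92 alternatives left the count within 1.5 times or the value on its side of the threshold, and 18 did not. Leaving out each rat in turn gave 3183 to 3532 genes higher in hippocampus and 3407 to 3710 higher in cortex, and 519 to 641 and 504 to 526 genes past 2-fold. Females alone gave 2388 and 2355, with fewer rats. Without the replicate block, which pairs the libraries of a rat, the counts were 3634 and 3757. The share of calls toward hippocampus ran from 47.7% to 53.8% (48.5% as reported), and scaling moved the median of all genes by at most 0.0248 (log2).

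The interactions depended more on the tool and filter. DESeq2 called 3 and 11 genes for sex, 27 and 74 for genotype and 23 and 59 for treatment (toward hippocampus and toward cortex). With no filter, edgeR called 1 and 24, 17 and 76, and 19 and 98. For treatment, no gene passed without the replicate block (0 and 0), and 0 and 3 passed without rats 37, 41 and 58. The cause was not tested. The mitochondrial share reached an exact p of 0.0323 without the replicate block.

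Of 220 named genes, 6 lost their call when a single rat was left out (F5, Fn1, Npnt, Ocln, Pomc and Vwf). Without the replicate block 5 lost it (Apod, Cplx3, F5, Npnt and Ocln), with DESeq2 2 (F5 and Vwf), and with all 64 libraries 3 (F5, Ocln and Slc13a4). Without rats 37, 41 and 58 it was 9, adding Apod, Cplx3, Hs3st1 and Slc13a4 to Fn1, Npnt, Ocln, Pomc and Vwf. Males alone lost 8 and females alone 12, Apoe among the latter. In females alone the sign turned for Ttr (-0.65), F5 (-0.63), Calb1 (0.0037) and Plekhh2 (0.081). Plekhh2, which did not pass at -0.07, ran from -0.11 to 0.0018 with single rats left out and was at 0.0514 without the 3 rats. For the other scalings and the stricter filter no named gene was lost.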
